A study of Mus musculus with 8 samples.

Results

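The genes described here are 10 receptors and receptor-like proteins that bind modified lipoproteins: *Marco*, *Msr1*, *Cd36*, *Scarb1*, *Scarb2*, *Cd68*, *Olr1*, *Colec12*, *Cxcl16*, and *Cd5l*. They were chosen by name, and all 10 have a row among the 54146 genes of the deposited counts. The data are bulk RNA-Seq of FCGR4+ and FCGR4- macrophages sorted from the epididymal fat of 4 C57Bl6 mice, 1 library of each population per mouse, so 8 libraries in all. Every mouse had eaten a high-fat diet freely for 24 weeks and was then given 30% less food for 2 weeks, so both populations share diet and restriction, and no library comes from unrestricted or lean mice. The labels name no other treatment or allele. Cells were gated as CD45+ CD3- B220- Ly6G- SiglecF- CD11b+ and then split by FCGR4, an Fc receptor that binds IgG complexes; beyond CD11b, a myeloid integrin, the gate used no positive macrophage marker. Mice 1 and 2 carry another animal ID prefix than mice 3 and 4. Total counts were between 35992794 and 66856746 per library.

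Scavenger receptors take up oxidized or acetylated LDL, apoptotic cells, and microbial particles. They are not shut down as the cell fills with cholesterol, and uptake through them can turn a macrophage into a foam cell. Class A receptors (MSR1, MARCO, COLEC12) carry collagen-like stalks, class B receptors (CD36, SCARB1, SCARB2) span the membrane at both ends, CD68 is a heavily glycosylated endosomal protein, OLR1 (LOX-1) is a C-type lectin-like receptor, CXCL16 is both a membrane receptor for oxidized LDL and a chemokine, and CD5L (AIM) is a secreted macrophage protein that binds CD36. In fat, macrophages meet lipid released by adipocytes, and CD36 also takes up long-chain fatty acids.

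RefSeq promoter entries on GRCm38.p6 were matched by symbol for 6 of the 10 genes (*Marco*, *Cd36*, *Scarb2*, *Cd68*, *Olr1*, and *Cd5l*). The 250 bases upstream of the start are shown for the most abundant pair of genes and for the pair with the largest fold changes (the *Cd36* window is at an internal start, inside the span counted for that gene), with matches to any of 9 searched motifs in capitals (either strand, 5′ to 3′ along the gene). The windows are chr11:69666171-69666420 (minus strand) for *Cd68*, chr5:17835897-17836146 (minus strand) for *Cd36*, chr1:120505025-120505274 (minus strand) for *Marco*, and chr3:87357631-87357880 (plus strand) for *Cd5l*.
Cd68: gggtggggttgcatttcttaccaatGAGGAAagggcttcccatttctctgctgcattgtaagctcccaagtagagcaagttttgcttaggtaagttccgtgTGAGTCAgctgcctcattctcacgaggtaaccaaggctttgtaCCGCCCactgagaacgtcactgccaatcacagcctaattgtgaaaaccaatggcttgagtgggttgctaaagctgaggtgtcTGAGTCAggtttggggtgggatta
Cd36: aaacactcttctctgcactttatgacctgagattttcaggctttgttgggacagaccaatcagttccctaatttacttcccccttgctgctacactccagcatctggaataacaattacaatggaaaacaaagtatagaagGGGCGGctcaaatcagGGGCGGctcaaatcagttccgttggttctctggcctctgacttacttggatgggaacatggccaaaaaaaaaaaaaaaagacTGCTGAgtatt
Marco: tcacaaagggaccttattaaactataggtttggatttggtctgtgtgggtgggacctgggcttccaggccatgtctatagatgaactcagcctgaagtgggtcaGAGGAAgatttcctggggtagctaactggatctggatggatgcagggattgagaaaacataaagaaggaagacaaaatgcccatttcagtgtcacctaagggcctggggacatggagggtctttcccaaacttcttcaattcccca
Cd5l: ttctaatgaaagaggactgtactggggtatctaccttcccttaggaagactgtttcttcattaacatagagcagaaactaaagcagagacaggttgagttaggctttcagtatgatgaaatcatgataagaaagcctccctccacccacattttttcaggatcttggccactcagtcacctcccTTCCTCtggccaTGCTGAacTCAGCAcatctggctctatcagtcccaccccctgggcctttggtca

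The letters GAGGAA, the core bound by the macrophage factor PU.1, are present in the *Marco*, *Cd5l*, and *Cd68* windows, and in 23.3% of all 32851 promoters. The AP-1 letters TGANTCA occur in 2 places in the *Cd68* window and in 6.75% of all promoters. The letters TGCTGA, a short site of MAF factors, occur in 2 places in the *Cd5l* window and in 1 place in the *Cd36* window (16.1% of all promoters), and the GC box GGGCGG in 2 places in the *Cd36* window and 1 in the *Cd68* window (32.7%). The other motifs searched were the direct repeat of AGGTCA with a spacing of 1 base (PPAR with RXR) or 4 bases (LXR with RXR), GTCACGTG (the CLEAR box of lysosomal genes), GAAA repeated with a spacing of 2 bases (the interferon response core), and TATAAA, and none of these is in the 4 windows. Motif searches could overlap, and a match is only a description of the letters.

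The sort label was checked on *Fcgr4*. In FCGR4+ cells it was at 215, 138, 208, and 236 normalized CPM (CPM, library-scaled counts after TMM scaling) in mice 1 to 4, and in FCGR4- cells at 48.4, 52.2, 81.0, and 82.8 normalized CPM. The populations did not overlap (log2 fold change 1.61, SE 0.173, adjusted P = 0.0162 by edgeR). All 12 macrophage markers were tested and none passed the edgeR threshold (DESeq2 called 7 higher, against 1.12% of all genes). Their summed level was between 34562 and 62833 normalized CPM in FCGR4+ and between 25106 and 55278 in FCGR4- cells, higher in FCGR4+ cells in 4 of 4 mice, as were 9 of the 12 markers, and their part in the receptor values was not tested. Most of this sum was *Lyz2*, with a mean of 22988 of 42089 normalized CPM in FCGR4+ and 21408 of 35301 in FCGR4- cells. FCGR4- libraries also held more transcripts of several other cell types. By edgeR (which called 1.19% of all genes lower), all 8 mast cell and basophil markers passed the threshold as lower in FCGR4+ cells (summed 14.1 to 30.4 against 386 to 2118 normalized CPM), as were 5 of 8 neutrophil markers (119 to 544 against 381 to 2380) and 6 of 9 fibroblast markers (149 to 297 against 373 to 1591). Also called lower were 3 of 8 dendritic cell markers (6.82 to 15.6 against 42.2 to 94.4), 5 of 8 T and NK cell markers (3.71 to 10.6 against 15.3 to 51.8), and 2 of 5 B cell markers (179 to 332 against 407 to 2321). Of the markers tested in these 6 lists, 1 B cell marker had a log2 fold change above 0. Monocyte markers were mixed. Of 6 classical ones edgeR called 2 lower, and 2 had a log2 fold change above 0. Of 6 nonclassical ones it called 2 higher, *Cd300e* and *S1pr5* (against 0.0819% of all genes), and only these 2 were above 0. *S1pr5* was near the floor in FCGR4- cells, at a mean of 0.119 normalized CPM. In bulk samples, fewer cells of a type and less RNA per cell cannot be told apart.

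The main comparison asked whether the receptors differ between FCGR4+ and FCGR4- macrophages of the same mouse. *Marco* and *Cd5l* had the largest differences, 6.75-fold and 2.23-fold higher in FCGR4+ cells as fitted, each higher in 4 of 4 mice. *Cd36* was 1.32-fold higher in the fit, also in 4 of 4 mice, and *Colec12* was lower in 4 of 4. In edgeR's quasi-likelihood test, paired by mouse, none of the 10 genes passed the threshold (adjusted P under 0.1). That fit called 1.27% of the 17095 genes tested, 0.0819% as higher (14 genes) and 1.19% as lower (203 genes) in FCGR4+ cells. The unadjusted P was under 0.05 for 3 of the 10, against 9.77% of all genes. DESeq2 with the same paired model called 2 of the 10, *Marco* and *Cd5l*, against 5.99% of all genes, edgeR's newer quasi-likelihood method called the same pair (3.68%), and limma-voom called *Cd5l* (2.67%).

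Across the 10, 8 log2 fold changes were above 0 and the median was 0.19, against 0.00 for all genes tested. In every mouse, 3 of the 10 were higher in FCGR4+ cells (8.35% of all genes) and 1 was lower (10.4%). Scaling by the summed macrophage markers in place of TMM moved the median of all genes to -0.27 and that of the 10 to -0.08, and put *Msr1*, *Scarb1*, *Cd68*, *Olr1*, and *Cxcl16* below 0. An exact sign-flip test on the 4 paired ratios, two-sided, cannot go below P = 0.125, and *Marco*, *Cd36*, *Colec12*, and *Cd5l* each gave that smallest value.

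**Figure D1:**
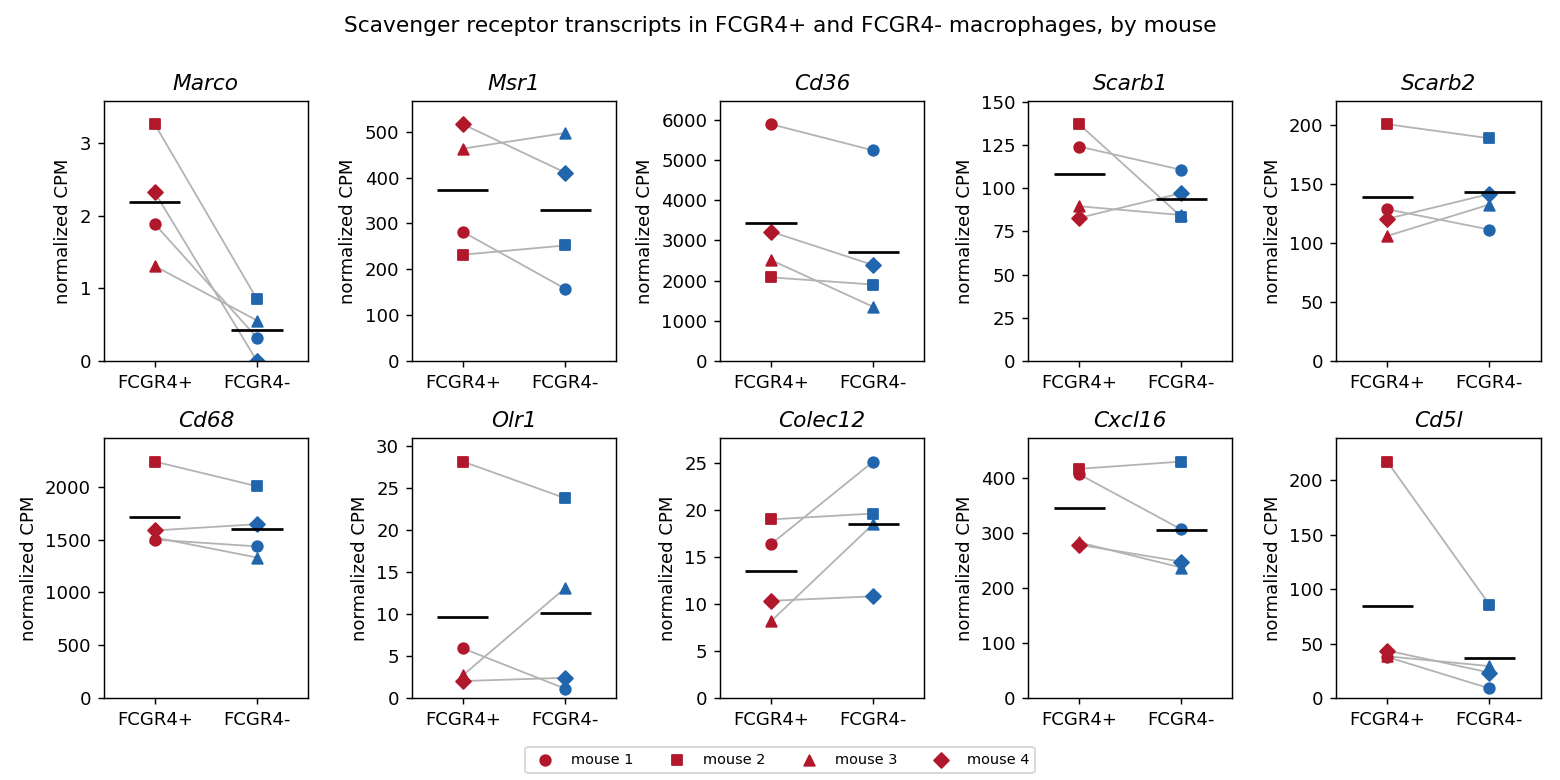
Normalized CPM of each receptor gene in FCGR4+ (red) and FCGR4- (blue) cells, with a line joining the 2 libraries of each mouse, a marker shape per mouse, and a black bar at the mean of 4 mice (each vertical axis starts at 0). The populations are separate for *Marco* and overlap for the other 9 genes.

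*Marco*, a class A receptor known from macrophages that meet blood or airway particles, lies on chromosome 1 of mm10 from 120474538 to 120505024 on the minus strand. It was at 1.89, 3.26, 1.31, and 2.32 normalized CPM in FCGR4+ cells of mice 1 to 4 and at 0.323, 0.853, 0.559, and 0 in FCGR4- cells. Every FCGR4+ library was above every FCGR4- library, a pattern that 0.883% of all genes showed. The levels were low: 82 to 157 counts in FCGR4+ libraries and 0 to 31 in FCGR4- libraries. The means were 2.19 ± 0.824 and 0.434 ± 0.361 normalized CPM (SD, n = 4). The log2 fold change was 2.76 (SE 1.03, 95% interval 0.34 to 5.18), with an adjusted P of 0.445 by edgeR and 0.0338 by DESeq2. With 0 counts in FCGR4- cells of mouse 4, its level there was at least 52.9-fold lower than in FCGR4+ cells, taking 3 counts in that library (0.0439 normalized CPM) as the floor. Without mouse 4 the log2 fold change was 1.89 to 1.90 by both tools and DESeq2 still called it (adjusted P = 0.0831, against 4.2% of genes called).

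*Cd5l* lies on chromosome 3 from 87357881 to 87371073 on the plus strand. In FCGR4+ cells it was at 38.0, 217, 38.6, and 43.8 normalized CPM in mice 1 to 4, and in FCGR4- cells at 9.23, 85.9, 29.6, and 23.7. Mouse 2 was far above the others in both populations, and within each mouse the FCGR4+ library was the higher one. The means were 84.3 ± 88.4 and 37.1 ± 33.6 normalized CPM (SD, n = 4), and the paired log2 fold change was 1.16 (SE 0.264, 95% interval 0.54 to 1.78). The adjusted P was 0.160 by edgeR and 5.62e-04 by DESeq2. The log2 fold change was 1.68 in mice 1 and 2 alone and 0.61 in mice 3 and 4 alone, a difference of -1.05 (SE 0.320) with an adjusted P of 0.315 by edgeR, and no gene of the 17095 passed the test of that difference. Without mouse 3 edgeR called *Cd5l* (log2 fold change 1.40, adjusted P = 0.0701, against 0.953% of genes called).

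**Figure D2:**
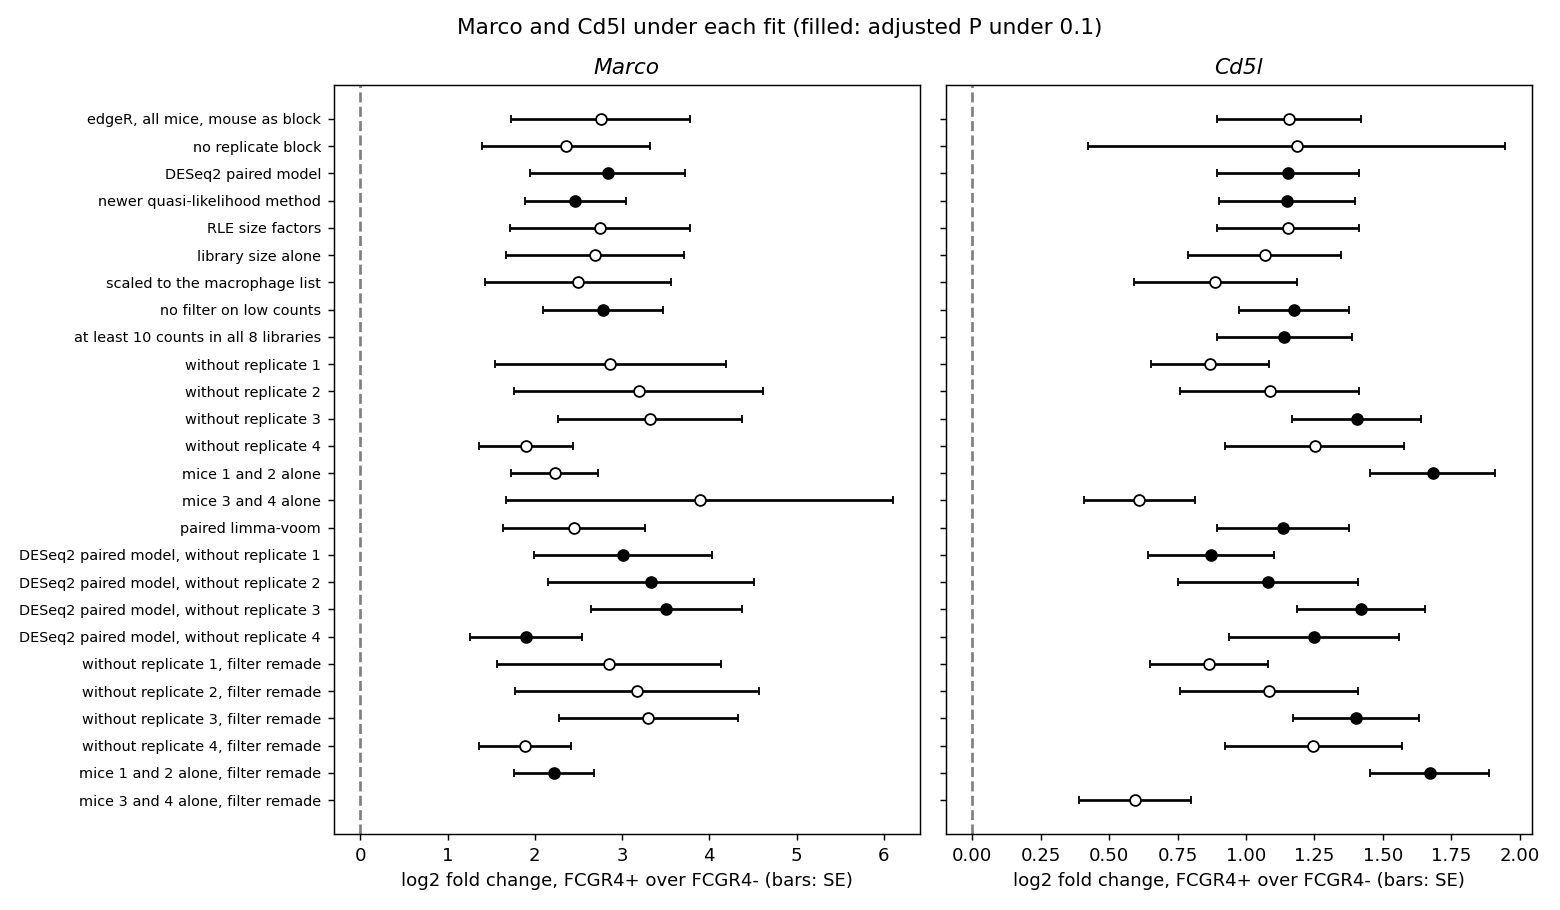
Log2 fold change of *Marco* and *Cd5l*, FCGR4+ over FCGR4-, in each fit (points) with its SE (bars); filled points passed an adjusted P under 0.1 and open points did not. Both genes stay above 0 in every fit shown, whereas the call depends on the test and the libraries. *Marco* has no point where 10 counts were required in every library of the fit and one fell short.

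*Cd36*, the class B receptor for oxidized LDL and long-chain fatty acids, lies on chromosome 5 from 17781690 to 17888801 on the minus strand. It was at 5890, 2082, 2513, and 3219 normalized CPM in FCGR4+ cells and at 5239, 1904, 1350, and 2389 in FCGR4- cells of mice 1 to 4. Mouse 1 was highest in both populations, the ranges overlapped, and each FCGR4+ library exceeded its partner. The log2 fold change was 0.41 (SE 0.163), with an adjusted P of 0.488 by edgeR and 0.236 by DESeq2. *Cd36* made up between 36.6% and 70.8% of the summed normalized CPM of the 10 genes. It was past the threshold only in mice 3 and 4 alone when the filter on low counts was remade on their 4 libraries (log2 fold change 0.62, adjusted P = 0.0673, a fit that called 16.5% of all genes), and not when the genes of the main fit were kept (0.64).

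*Scarb1*, the HDL receptor that mediates selective cholesterol ester transfer, was at 124, 137, 89.5, and 82.8 normalized CPM in FCGR4+ and at 111, 83.5, 84.5, and 97.1 in FCGR4- cells. It was higher in 3 of 4 mice, with overlapping ranges (log2 fold change 0.18, SE 0.175, 95% interval -0.23 to 0.60). *Scarb2*, the lysosomal membrane protein that carries glucocerebrosidase, was at 128, 200, 106, and 120 normalized CPM in FCGR4+ and at 111, 188, 132, and 141 in FCGR4- cells. It was higher in 2 mice and lower in 2 (log2 fold change -0.07, SE 0.145, 95% interval -0.41 to 0.28).

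*Msr1*, the founding class A receptor for acetylated LDL, was at 282, 232, 463, and 516 normalized CPM in FCGR4+ and at 158, 252, 497, and 411 in FCGR4- cells of mice 1 to 4. It was higher in 2 mice and lower in 2 (log2 fold change 0.23, SE 0.189, 95% interval -0.21 to 0.68). The larger gap was between mice: mice 3 and 4 averaged 472 and mice 1 and 2 averaged 231 normalized CPM over both populations, a ratio of 2.04 that goes with the animal ID prefix. *Colec12*, a collectin also made by stromal and endothelial cells, was at 16.4, 19.0, 8.20, and 10.4 normalized CPM in FCGR4+ and at 25.2, 19.6, 18.5, and 10.8 in FCGR4- cells. It was lower in FCGR4+ cells of 4 of 4 mice, by little in mice 2 and 4 (log2 fold change -0.48, SE 0.228, adjusted P = 0.548 by edgeR). Fibroblast markers were lower in the same libraries, in 4 of 4 mice by their sum, and their part in the *Colec12* values was not tested.

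*Cd68* was at 1499, 2236, 1520, and 1585 normalized CPM in FCGR4+ and at 1435, 2003, 1330, and 1644 in FCGR4- cells. Mouse 2 was highest in both populations, and the difference was small (log2 fold change 0.09, SE 0.121, 95% interval -0.20 to 0.38). *Cxcl16* was at 406, 416, 283, and 278 normalized CPM in FCGR4+ and at 306, 429, 237, and 248 in FCGR4- cells, higher in 3 of 4 mice (log2 fold change 0.20, SE 0.134, 95% interval -0.12 to 0.51). Of the exon bases of *Cxcl16*, 18.3% overlap *Zmynd15* on the other strand, and strand was not used in counting. *Olr1* was at 5.96, 28.2, 2.76, and 2.07 normalized CPM in FCGR4+ and at 1.17, 23.8, 13.1, and 2.46 in FCGR4- cells. Its direction split by mouse, higher in mice 1 and 2 and lower in mice 3 and 4 (log2 fold change 0.00, SE 0.637, a fold between 0.355 and 2.84 at 95%); the difference between the pairs of mice had an adjusted P of 0.354 by edgeR.

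**Figure D3:**
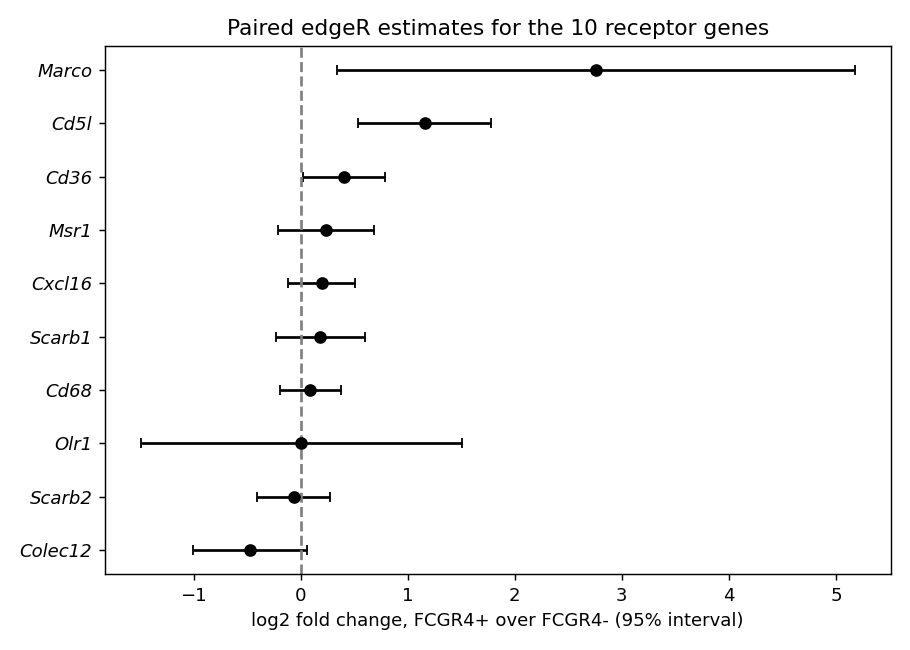
Fitted log2 fold change, FCGR4+ over FCGR4-, of the 10 receptor genes (points) with 95% intervals (bars) from edgeR's paired quasi-likelihood test, n = 4 mice. The intervals of *Marco*, *Cd5l*, and *Cd36* lie above 0 before adjustment for the 17095 genes tested, and that of *Marco* is the widest.

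Levels of different genes were compared per kilobase of exon. In FCGR4+ cells *Cd68* (1360 ± 280 normalized CPM per kilobase) and *Cd36* (954 ± 476) led, with overlapping ranges, and *Cd36* was 8.33-fold above *Cxcl16* (115, from 92.2 to 138). *Cxcl16* did not overlap *Cd36* or *Msr1* (58.8 ± 21.7). *Cd5l* (41.4 ± 43.4) overlapped both *Msr1* and *Scarb2* (22.1 ± 6.70). *Scarb1* (12.7 ± 3.09) and *Colec12* (4.06 ± 1.52) came after without overlapping their upper neighbor, and *Colec12*, *Olr1* (2.73 ± 3.48), and *Marco* (1.14 ± 0.428) overlapped in turn. FCGR4- cells had the same order except that *Scarb2* (22.8 ± 5.19) stood above *Cd5l* (18.2 ± 16.5), a pair whose ranges overlapped. *Marco* had the lowest mean of the 10 in both populations, with a range that overlapped that of *Olr1*.

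**Figure D4:**
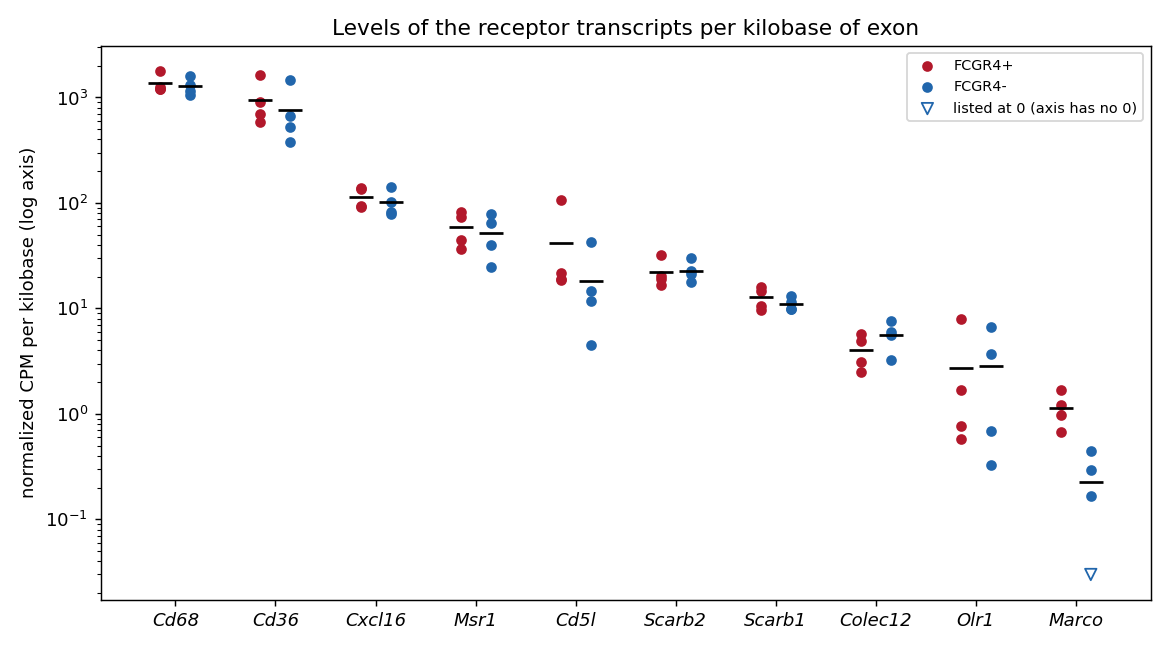
Normalized CPM per kilobase of exon (log axis) of the receptor genes in FCGR4+ (red) and FCGR4- (blue) libraries, with black bars at the means of 4 mice; the open triangle marks the *Marco* library listed at 0, which a log axis cannot show. *Cd68* and *Cd36* stand above the other 8 genes in both populations.

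For 9 of the genes, the gene with the most similar profile was sought among 11827 genes by Pearson's r of log2 CPM over the 8 libraries, which share mice and depth. The nearest to *Msr1* was *Rnf213* (r = 0.996), to *Scarb2* *Camkk2* (0.992), to *Cd36* *Palld* (0.988), to *Cxcl16* *Galnt11* (0.985), and to *Cd5l* *Abi3* (0.983). For *Cd68* it was *Ctsb* (0.980), the lysosomal protease cathepsin B, for *Olr1* *Fuca2* (0.973), for *Marco* *Clock* (0.953), and for *Scarb1* *Tbxas1* (0.942), thromboxane synthase.

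Of 19 other scavenger receptor genes 16 were tested and 4 were lower in FCGR4+ cells by edgeR (1.19% of all genes), with none higher, and the median log2 fold change was -0.36. DESeq2 called 5 lower and 3 higher, against 4.87% and 1.12% of all genes. *Scara5*, a ferritin receptor, was at 7.90, 2.14, 1.79, and 3.26 normalized CPM in FCGR4+ and at 28.2, 7.64, 15.7, and 10.2 in FCGR4- cells (log2 fold change -2.10, SE 0.287, adjusted P = 0.0396 by edgeR). *Cd163*, the hemoglobin-haptoglobin receptor of resident macrophages, was at 35.4, 12.7, 39.0, and 21.1 against 23.6 to 80.3 normalized CPM in FCGR4- cells (log2 fold change -0.96, SE 0.155, adjusted P = 0.0602 by edgeR). *Scara3* (-2.62, adjusted P = 0.0706) and *Ssc5d* (-2.53, adjusted P = 0.0686) were lower as well, both under 3 normalized CPM in every FCGR4+ library. Every one of these was lower in 4 of 4 mice, but with the genes of the main fit kept *Cd163* and *Ssc5d* lost the call without any 1 mouse, *Scara3* without mouse 1, 3, or 4, and *Scara5* without mouse 1. Without mouse as a block the adjusted P of the 4 was 0.207 to 0.802 by edgeR. Fibroblast markers (6 of 9 lower) and perivascular resident macrophage markers (2 of 10 lower by edgeR, *Cd163* itself and *Cd209f*; 4 lower and 1 higher by DESeq2) moved with them, and their part was not tested.

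None of 14 tested native lipoprotein receptors and lipases passed by edgeR, while DESeq2 called 1 higher and 1 lower (against 1.12% and 4.87% of all genes). *Lpl*, the lipase that frees fatty acids from triglyceride-rich lipoproteins, was at 5457, 2444, 3166, and 3432 normalized CPM in FCGR4+ and at 4439, 1595, 1425, and 2534 in FCGR4- cells, higher in 4 of 4 mice (log2 fold change 0.62, SE 0.168, adjusted P = 0.233 by edgeR and 0.0172 by DESeq2). *Vldlr* (-1.88, adjusted P = 0.395, and 0.0791 by DESeq2) and *Gpihbp1* (-1.16, adjusted P = 0.397) were next in that edgeR fit. None of 17 genes that handle lipid after uptake passed by edgeR or DESeq2. Of these 15 had a log2 fold change above 0 (49.7% of all genes did) and the median was 0.28. Scaled to the macrophage markers, 9 were above 0 with a median of 0.0035, against 3434 of all 17095 genes and a median of -0.27. The lowest adjusted P values there belonged to *Fabp4* (0.70, adjusted P = 0.488), *Abcg1* (0.32, adjusted P = 0.489), and *Nceh1* (0.30, adjusted P = 0.514), a fatty acid carrier, a cholesterol exporter, and a cholesterol ester hydrolase. Among 24 tested partners and regulators of the receptors only *Fcgr4*, the sort marker and so a check, passed by edgeR. DESeq2 called 2 higher, *Fcgr4* itself and *Pparg*, and 1 lower, *Cxcr6* (against 1.12% and 4.87% of all genes). *Pparg*, the nuclear receptor that drives *Cd36*, was at 58.5, 43.8, 37.1, and 49.9 normalized CPM in FCGR4+ and at 43.5, 25.2, 16.9, and 43.0 in FCGR4- cells (log2 fold change 0.64, SE 0.181, adjusted P = 0.262 by edgeR and 0.0399 by DESeq2). *Cxcr6*, the receptor of CXCL16, was fitted at -3.13 on the log2 scale (adjusted P = 0.385 by edgeR and 0.00268 by DESeq2), lower in 3 of 4 mice. Its levels were low, at means of 0.761 normalized CPM in FCGR4+ and 2.96 in FCGR4- cells. The lowest library held 1 count, under the floor of 3 counts. T and NK cell markers were lower in the same libraries (5 of 8 called by edgeR), and their part in the *Cxcr6* values was not tested. *Nr1h3*, which encodes LXRα, was fitted at 0.32 (adjusted P = 0.339 by DESeq2).

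**Figure D5:**
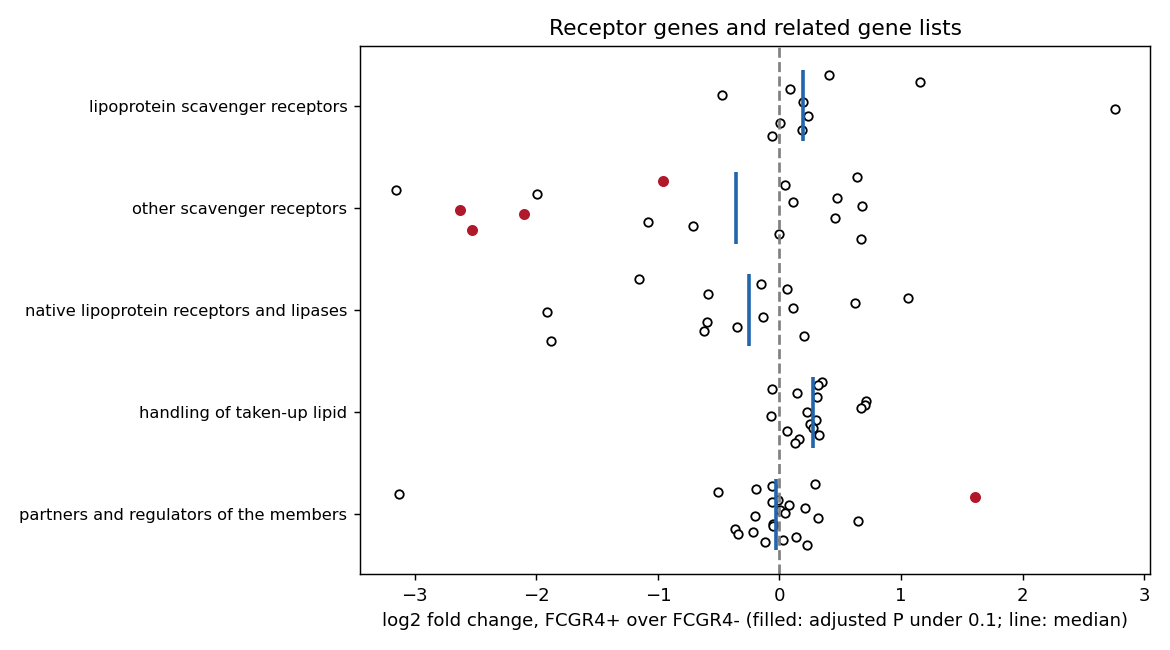
Log2 fold change, FCGR4+ over FCGR4-, of each tested gene in the receptor list and the 4 related lists (points), filled where the adjusted P was under 0.1, with a line at the median of each list. The only filled points below 0 are the 4 in the list of other scavenger receptors, and the filled point above 0 is *Fcgr4*, the sort marker.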

How the data were processed

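Bulk RNA-Seq was performed on FCGR4+ and FCGR4- cells of 4 mice. Reads were mapped by the authors to mm10 with STAR and assigned to genes with featureCounts (version 1.6.3 per the file headers); the deposited values are counts per gene, unnormalized, with gene length in bases beside them. A pair with several alignments counted once per alignment, and its strand was ignored. Of the deposited per-sample columns, 0 were left out.

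A gene entered the test when 4 or more of the 8 libraries held 10 or more counts (17095 genes). Scaling was by TMM, and the model had terms for mouse and population (edgeR 4.0.16 in R 4.3.3, quasi-likelihood F test). Benjamini-Hochberg adjustment covered all genes tested, with a threshold of 0.1. Each SE is the absolute log2 fold change over √F. Alternatives used DESeq2 1.42.0, limma 3.58.1, other scalings and filters, a threshold of 0.05, and fewer mice. The mouse number in the labels pairs the libraries: deviations of the same mouse correlated at 0.291 to 0.428 between populations, and those of different mice at a median of -0.0615. No pair of same-population libraries was a duplicate (chi-square per degree of freedom at least 87.0). Total counts were 35992794 to 66856746, so 3 counts equal 0.0439 to 0.0882 normalized CPM (counting error only). With mouse as a block, P-values of edgeR, DESeq2, and limma rest on the spread of paired differences over 4 mice. Each gene's variance estimate also draws on other genes (7.17 total degrees of freedom in the main edgeR fit).

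The genes, lists, and tests were chosen with earlier results of these data known. Named genes were the 10 receptors, *Fcgr4*, of each related list those past the threshold (at most the 4 with the lowest adjusted P; if none, the lowest 3), and the genes nearest to each receptor (1 such result is not reported here). Fits on fewer mice kept the genes of the main fit that had a count left (17094 in mice 3 and 4 alone), and genes with no adjusted P from DESeq2 stayed out of its counts. These fits had first been run with the filter remade on the libraries left, and this was changed after a fit of mice 3 and 4 had called 2418 genes. Both versions are reported. The scripts were tested on simulated data, drawn with edgeR's own dispersion estimates, where DESeq2 made more false calls than edgeR.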

Additional observations from a re-analysis of the deposited data

Results flagged for a closer look

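In 33 groups of 4 values (each receptor gene and *Fcgr4*, in each population and as paired ratios), 3 held a value far from the other 3 by Dixon's test, against 1.65 expected by chance at a rate of 1 in 20, and all 3 were the FCGR4+ library of mouse 2. *Cd5l* was at 217 normalized CPM there and at 38.0 to 43.8 in the other mice (gap 0.967 of the range). *Cd68* was at 2236 normalized CPM against 1499 to 1585 (gap 0.882), and *Olr1* at 28.2 against 2.07 to 5.96 (gap 0.851). Mouse 2 also had the highest summed macrophage markers in both populations, 62833 normalized CPM in FCGR4+ and 55278 in FCGR4- cells. Without mouse 2 the edgeR log2 fold change of *Cd5l* was 1.09 and that of *Olr1* was -0.11.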

How the results depend on the processing

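The count of receptor genes past the threshold moved from 0 to 2 with DESeq2, with edgeR's newer method and with no filter on low counts (*Marco* and *Cd5l* each time), and to 1 (*Cd5l*) with at least 10 counts in all 8 libraries (a fit that called 256 of 13923 genes), in mice 1 and 2 alone, and with limma-voom; leaving out 1 mouse gave 0 to 1 with edgeR and 2 with DESeq2. The count of all genes past the threshold, 217, was 48 without mouse as a block, 1024 with DESeq2, 629 with the newer method, 359 scaled to macrophage markers, 1054 with no filter, 76 at 0.05, 457 with limma-voom, 113 in mice 1 and 2 alone and 113 in mice 3 and 4 alone. Leaving out mouse 1, 2, 3, or 4 gave 84, 127, 163, and 91 genes with edgeR, 84, 121, 140, and 81 with the filter remade, and 1115, 987, 589, and 718 with DESeq2. Without mouse as a block 0 of the 10 receptor genes passed as well. Limma-voom, DESeq2 without 1 mouse, and fits with the filter remade on the libraries left were chosen after seeing the data. With the filter remade, mice 3 and 4 alone gave 2418 genes and 1 receptor (*Cd36*), and mice 1 and 2 alone gave 239 genes and 2 receptors (*Marco* and *Cd5l*); the cause was not tested.

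Signs of log2 fold change turned for 6 genes, of which *Msr1*, *Cd68*, and *Cxcl16* did so only when scaled to macrophage markers, which moved the median of all genes to -0.27. There, *Msr1* was -0.038, *Scarb1* -0.091, *Cd68* -0.18, *Olr1* -0.24 and *Cxcl16* -0.077. *Scarb1* was -0.10 in mice 3 and 4 alone (-0.11 with the filter remade), and without mouse 2 it was -0.0083 by DESeq2 and -0.0025 by edgeR with the filter remade. *Scarb2* was 0.0088 without mouse 3 (0.0060 with the filter remade, 0.023 by DESeq2) and 0.15 in mice 1 and 2 alone (0.14). *Olr1* was -0.054 with no block, -0.061 with the newer method, -0.078 by library size alone, -0.012 with 10 counts in all libraries, -0.12 with limma-voom, -0.72 without mouse 1 (-0.73 with the filter remade, -0.72 by DESeq2), -0.11 without mouse 2 (-0.11 and -0.10) and -1.29 in mice 3 and 4 alone (-1.31). Over fits that left out 1 mouse, edgeR's range was -0.16 to 0.0088 for *Scarb2* and -0.72 to 0.73 for *Olr1*. *Marco* and *Cd5l* stayed above 0 in every fit.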
